A study of Zea mays with 4 samples.

Results

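The probes described here mostly report transcripts of the enzymes that pump protons across the plasma membrane and the vacuolar membrane of maize root cells. Others report enzymes that split pyrophosphate, and a few report other proteins whose annotation matched, named below. All were selected by the text of their annotation: plasma membrane H+-ATPases, vacuolar H+-ATPases (V-ATPases), proton pumps and pyrophosphatases. Mitochondrial and F1-type ATPases and nucleotide pyrophosphatases were left out. The rule kept 88 of the 54787 maize probes whose identifier has 1 spot on 1 of the 2 array versions, 41 on version A and 47 on version B. By the same text they fall into 38 V-ATPase, 17 vacuolar H+-pyrophosphatase, 17 soluble pyrophosphatase and 7 plasma membrane H+-ATPase probes, 4 for a proton pump interactor, 3 for a putative proton pump and 2 for an ADP-glucose pyrophosphatase. The soluble class includes probes annotated only as inorganic pyrophosphatase. These are placed there because no word for protons or the vacuole occurs, and their solubility is not given. The 88 probes share 40 distinct best protein matches, so many of them are probes for 1 gene or for close relatives and are not independent of each other.

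Proton pumps set up the proton gradient and the membrane voltage that drive most solute transport in plants. The plasma membrane H+-ATPase moves protons out of the cell, and nitrate enters root cells together with protons that return along that gradient. The V-ATPase and the vacuolar H+-pyrophosphatase move protons into the vacuole, where the gradient they build drives the storage of ions, nitrate among them. Soluble pyrophosphatases hydrolyse the pyrophosphate that biosynthesis releases, which is also the fuel of the vacuolar H+-pyrophosphatase.

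Nitrate-treated root RNA was labelled with Cy3 and came from the side of a split-root system that received 1 mM nitrate for 1 h. Control RNA was labelled with Cy5 and came from the nitrogen-free side, to which 1 mM CaCl2 was added to make up for calcium. All plants, whose age is given as day 10, had been raised for 6 days with 0.5 mM nitrate and then for 2 days without nitrogen, and root segments of 15 cm that began at the tip were taken. Each of 4 two-colour arrays compared nitrate with control RNA directly, giving 2 replicates on version A and 2 on version B. The series text calls the replicates biological, but the file headers do not settle whether the second pair came from separate plants. The p-values below therefore rest on the spread between arrays, which may be technical. That spread is each probe's own over 2 arrays, moderated by the pooled spread of all tested probes of its version. All arrays carry the same dye orientation, and a probe's dye preference cannot be told apart from its response to nitrate. In RNA from whole segments, fewer cells of a type and less RNA per cell cannot be told apart.

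On each array 32448 spots were read, with median intensities of 1572.5 to 1939 for nitrate RNA and of 1438 to 1960 for control RNA. The 95th percentile of blank and buffer spots was exceeded by 89.6% to 98.9% of the maize spots for nitrate RNA and by 91.2% to 96.7% for control RNA. The tissue label was checked with annotation lists: 45 of 108 probes of a root list were among the brightest 25.0% of probes, against 21 of 161 leaf, 14 of 334 seed and 9 of 62 pollen probes. The root list holds aquaporins and metallothioneins, which are not found in roots alone. Of the 88 pump and pyrophosphatase probes, 86 were bright enough to test. In 5 of the 88 at least 1 channel was saturated, and in 6 at least 1 channel was not above blank.

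None of the 86 tested probes passed an adjusted p of 0.05 in limma with Benjamini-Hochberg adjustment, in a background where 0.0211% of all 52082 tested probes did (on version B 0.0457% with nitrate higher, and 0.0% with nitrate lower or on version A). The smallest adjusted p was 0.161 on version B and 0.281 on version A. An unadjusted limma p under 0.05 was reached by 13 probes with nitrate higher and 4 with nitrate lower, together 19.8% of those tested, against 12.4% of all probes tested (7.57% higher and 4.81% lower). No member differed at least 2-fold in the same direction on both arrays, which 0.572% of all probes did with nitrate higher and 0.0913% with nitrate lower. Every difference below is therefore a description of 2 arrays and not a called change. Nitrate exceeded control on both arrays for 32 of the 88 probes (36.4%) and lay below it on both for 21 (23.9%), against 30.1% and 30.3% of all probes. That balance turned under median centring, where each array is centred on its median in place of the loess curve: 24 were then above control on both arrays and 30 below, against 33.6% and 33.4% of all probes, and the median of the 88 was -0.03, against 0.08 after loess.

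**Figure D1:**
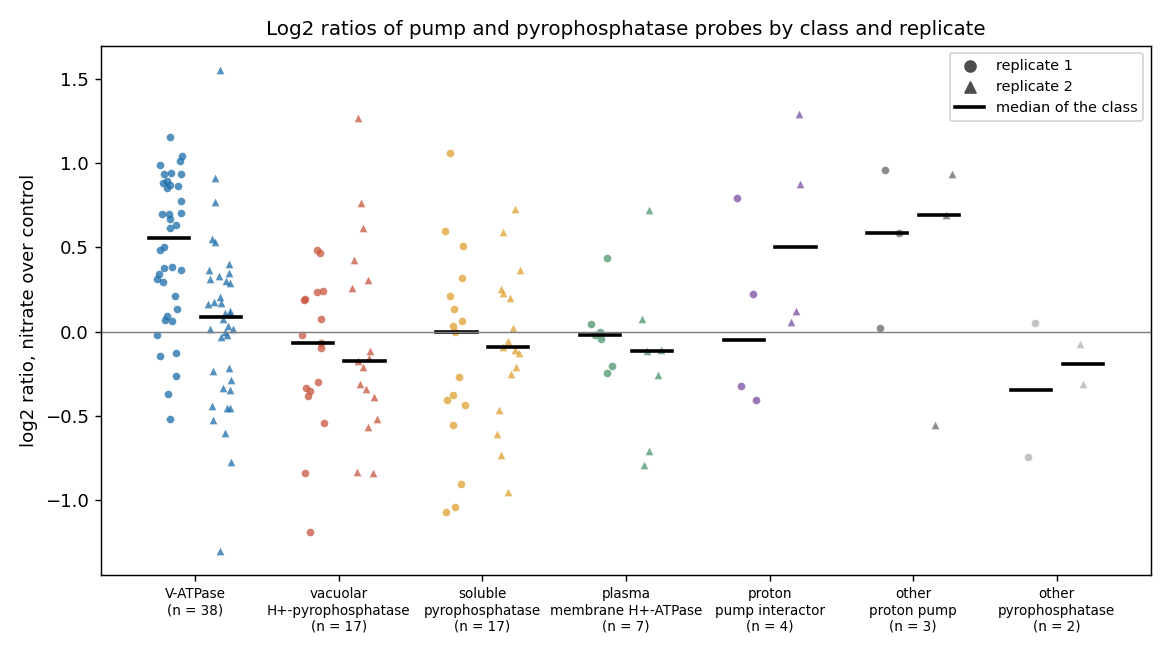
Log2 ratios of nitrate over control for every probe (vertical axis), by class (horizontal axis), with replicate 1 as circles, replicate 2 as triangles and the class median as a black line. The V-ATPase probes have a median of 0.56 on replicate 1 and 0.09 on replicate 2, while the medians of the vacuolar H+-pyrophosphatase, soluble pyrophosphatase and plasma membrane H+-ATPase classes are at or below 0 on both.

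The V-ATPase is a rotary pump in which the V1 sector hydrolyses ATP in the cytosol and the V0 sector carries protons through the membrane. Its 38 probes had a median log2 ratio of 0.19, against 0.00165 over all probes. The ratio was above 0 on both arrays for 20 of them (52.6%) and below 0 on both for 3 (7.89%), and 15 had opposite signs on the 2 arrays. Of the 37 tested, 9 (24.3%) had an unadjusted limma p under 0.05 with nitrate higher and 0 with nitrate lower. The shares over all probes tested were 7.57% and 4.81%. The V-ATPase count at that p was 5 without the normexp correction of intensities and 4 with the authors' deposited ratios. The replicates were far from equal: 32 probes were above 0 on replicate 1, with a median of 0.56, and 23 on replicate 2, with a median of 0.09. On version B 15 of 22 probes (68.2%) and on version A 5 of 16 (31.2%) exceeded 0 on both arrays, with medians of 0.22 and 0.19. These counts were 9 and 5 after median centring and 13 and 7 with the authors' deposited ratios, and the difference between the versions was not tested. Of all probes 30.1% did so on either version, and 30.0% on version B and 30.5% on version A lay below 0 on both. The difference between the V-ATPase probes and the other classes was not tested. The probes of the root list had a like shift, with 52 of 108 above 0 on both arrays (48.1%), 20 below (18.5%) and a median of 0.16, and after median centring 35 above, 25 below and a median of 0.05. The part of the tissue makeup in the V-ATPase values was not tested.

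Subunit A holds the catalytic site that hydrolyses ATP. Its probe MZ00037937 had raw intensities of 3068 and 7705 in the nitrate channel, against 1813 and 2168 in the control channel. The raw values of the channels did not overlap. Here and below, overlap is read on intensities before normalization, and the share of all probes without overlap was not determined. Overlap compares channels across arrays and ignores their pairing on each array, so it does not measure the response. On replicate 2 of version B the raw median over maize spots was 1939 for nitrate and 1438 for control. For MZ00037937 the normalized log2 ratios of 0.87 and 1.55 gave a mean of 1.21 ± 0.48 (SD, n = 2 arrays), the highest of all 88 members. Its adjusted limma p was 0.161. The other 4 subunit A probes had lower means, between 0.09 and 0.62, and 3 of them were negative on replicate 2. For example, MZ00035317 had 21012 and 19450 under nitrate, against 20303 and 25032 in control, with log2 ratios of 0.50 and -0.33.

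Subunit B binds nucleotides beside the catalytic site, and its 5 probes had a median of 0.51. Probe MZ00043021 had intensities of 5551 and 11741 under nitrate, against 3575 and 5724 in control. Nitrate was higher on each array, although the lower nitrate value lies within the range of the control values. The log2 ratios of 0.90 and 0.91 gave a mean of 0.90 ± 0.01 (SD, n = 2 arrays), with an adjusted limma p of 0.206. A pair of probes that share a best protein match differed in sign: MZ00023637 had a mean of 0.51 ± 0.48 and MZ00023636 one of -0.24 ± 0.31 (SD, n = 2 arrays each). The control channel of MZ00023637 was saturated on replicate 2.

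The stalk and regulatory subunits of V1 gave mixed values. Subunit C joins V1 to the membrane sector and in yeast leaves the complex when the pump is switched off. Its 7 probes match 1 rice protein and had a median of 0.08, with a range of -0.33 to 0.59. MZ00024448, one of these, was too dim on replicate 1 to be tested. The lowest of them, MZ00024449, had 13573 and 25810 under nitrate, against 20491 and 38648 in control. Nitrate was lower on each array, with overlapping ranges and log2 ratios of -0.14 and -0.52. Subunit F belongs to the central rotor stalk. Its 3 probes share 1 best match and ran from -0.45 for MZ00043403, with log2 ratios of -0.13 and -0.77, to 0.41 for MZ00039445, with 0.70 and 0.12. Subunits E and G form the outer stalks that hold the sector still. The single probe for E, MZ00051404, had log2 ratios of 0.10 and 0.02. The single probe for G, MZ00056131, had 0.94 and -1.30, and its nitrate channel was not above blank on replicate 2. Subunit H is a regulatory part at the joint between the sectors, and its 5 probes, which match 1 rice protein, had a median of 0.39. Among them MZ00011429 had log2 ratios of 0.78 and -0.00, so 1 array alone carried its mean of 0.39 ± 0.55 (SD, n = 2 arrays).

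In the V0 sector, subunit c builds the ring of proteolipids that carries the protons, and subunit d couples that ring to the rotor stalk. The 8 subunit c probes had a median of 0.19, with 4 above 0 on both arrays and 0 below on both. After median centring the median was -0.12, with 1 above 0 on both arrays and 1 below. The 4 include MZ00043128 and MZ00043129. Probe MZ00043128 was saturated in both channels on both arrays and gives no fold change. Probe MZ00043129 read 59370 and 59364 under nitrate, against 61320 and 63410 in control, where replicate 2 was saturated. Its raw nitrate value was the lower on each array, while its log2 ratios after loess were 0.34 and 0.01. Both subunit d probes had positive ratios on both arrays, and MZ00014567 had 0.31 and 0.07. One further V-ATPase probe, MZ00040551, annotated as a maize V-type H+-ATPase with no subunit named, had 33253 and 40319 under nitrate, against 20160 and 32788 in control. The raw nitrate values are above both raw control values. After loess the log2 ratios were 1.16 and 0.37, with a mean of 0.76 ± 0.56 (SD, n = 2 arrays). After median centring they were 0.75 and -0.05.

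**Figure D2:**
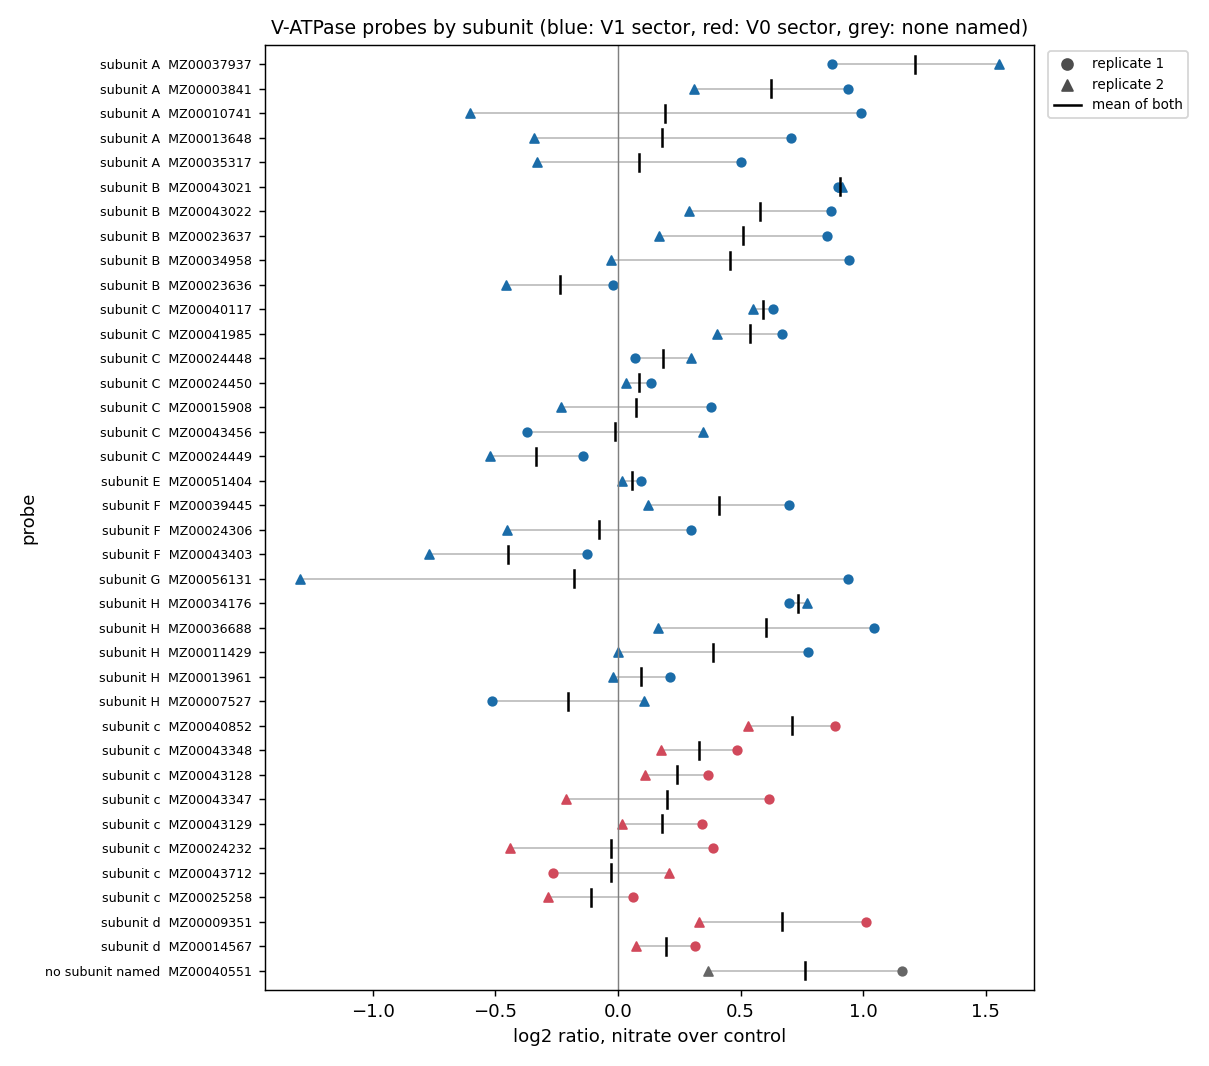
Log2 ratio of nitrate over control for each of the 38 V-ATPase probes (horizontal axis), grouped by subunit, with replicate 1 as circles, replicate 2 as triangles and the mean as a black bar. The grey lines that join the replicates are long for many probes, and 15 of the 38 cross 0.

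The 27 V1 probes had a median of 0.18 and the 10 V0 probes one of 0.20 after loess, against 0.18 and -0.10 after median centring, and the difference between the sectors was not tested. Without the 3 V-ATPase probes that had a saturated channel, 17 of 35 stayed above 0 on both arrays and 3 below. Without those and the dim spots, 16 of 32 were above 0 on both arrays and 3 below, with a median of 0.20.

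Brightness and normalization move with the V-ATPase result. Among V-ATPase probes of mean log2 intensity 10 to 13, 7 of 9 (77.8%) were above 0 on both arrays, against 30.0% of all maize probes of that brightness. At 13 or more the figures were 10 of 19 (52.6%) against 31.1%, and under 10 they were 3 of 10 against 29.8%. With median centring the V-ATPase median was 0.11. Then 14 probes (36.8%) were above 0 on both arrays and 5 below, against 33.6% and 33.4% of all probes. In 14 of the 38 the mean changed sign. Median centring leaves a trend with brightness in place: the median of all probes was then 0.47 at log2 intensities of 7 to 8 and -0.41 at 15 to 16. With the same dye orientation on all arrays, dye and nitrate effects in that trend cannot be told apart. For the 19 V-ATPase probes at 13 or more median centring gave a median of -0.13, against -0.35 for all probes of that brightness. With the authors' deposited ratios, 20 V-ATPase probes were above 0 on both arrays and 0 below, against 30.1% and 29.4% of all probes, and the median was 0.27. The part that brightness plays in the ratios was not tested further.

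**Figure D3:**
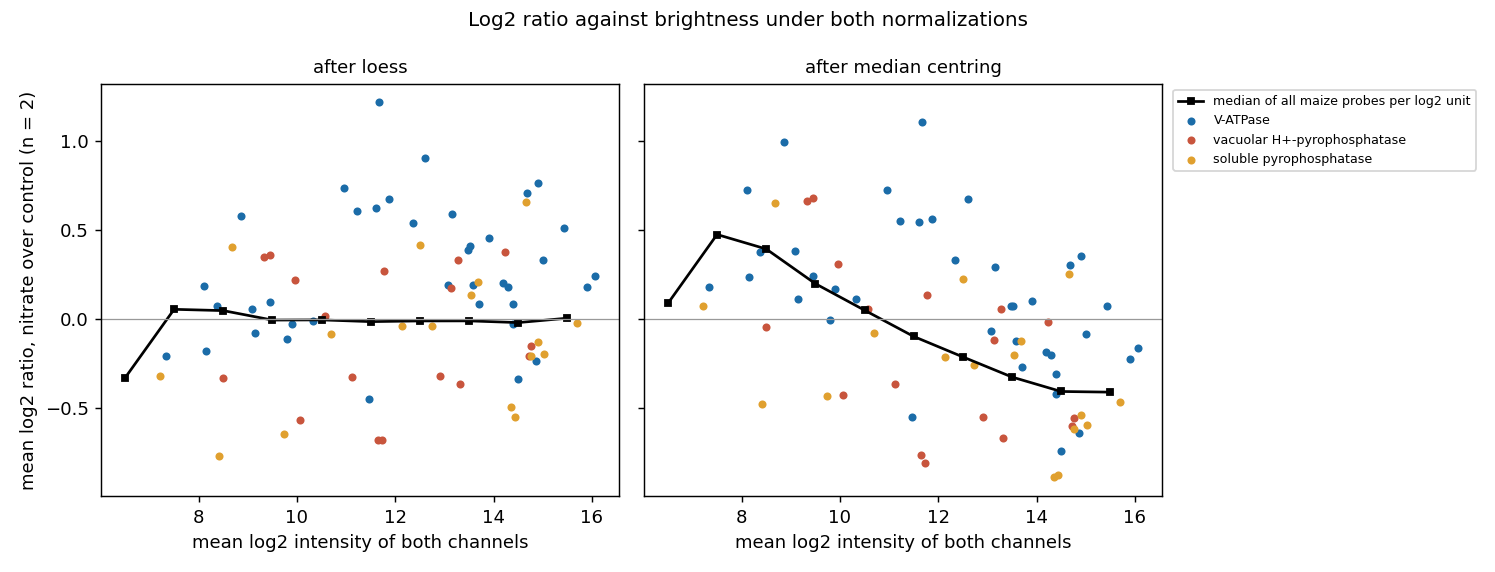
Mean log2 ratio of nitrate over control (vertical axis, n = 2 arrays) against the mean log2 intensity of both channels (horizontal axis) for the V-ATPase and pyrophosphatase probes, after loess on the left and after median centring on the right. The black squares are the medians of all maize probes per log2 unit, which stay near 0 from 7 upward after loess and run from 0.47 at 7 to 8 down to -0.41 at 15 to 16 after median centring.

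The vacuolar H+-pyrophosphatase is a single-protein pump of the vacuolar membrane that uses pyrophosphate in place of ATP. Its 17 probes had a median log2 ratio of -0.15, with 4 above 0 on both arrays (23.5%) and 8 below (47.1%), against 30.1% and 30.3% of all probes. After median centring 2 were above 0 on both arrays and 8 below. An unadjusted limma p under 0.05 was reached by 0 probes with nitrate higher and by 2 with nitrate lower, 11.8% of the 17 and near the 12.4% of all probes tested. One of the 2, MZ00023866, had intensities of 2872 and 1988 under nitrate, against 6000 and 2660 in control. The nitrate value was lower on each array, while the ranges overlap, and the mean log2 ratio was -0.68 ± 0.23 (SD, n = 2 arrays) with an adjusted limma p of 0.368. The other, MZ00021192, had log2 ratios of -1.19 and -0.17, so its mean of -0.68 ± 0.72 rests mostly on replicate 1.

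Probes that match the same H+-pyrophosphatase protein took both signs. The 8 probes whose best match is 1 rice protein ranged from -0.36 to 0.37, and the 4 that match 1 Arabidopsis protein ranged from -0.68 to 0.33. The highest mean, 0.37 ± 0.16 (SD, n = 2 arrays), belonged to MZ00043218, which had 14445 and 27715 under nitrate, against 13892 and 23755 in control. Probe MZ00051492 had 468 and 1208 under nitrate, against 576 and 269 in control, and its log2 ratios of -0.54 and 1.27 have opposite signs. MZ00038999, with a mean of 0.35 ± 0.38, was positive on both arrays, and MZ00050958, with -0.56 ± 0.38, was negative on both. The probes named for their strong signal, MZ00023056 and MZ00039248, had means of -0.15 ± 0.08 and -0.20 ± 0.26.

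Soluble pyrophosphatases hydrolyse pyrophosphate in the cytosol and in plastids. The 17 probes of this class, some annotated only as inorganic pyrophosphatase, had a median of -0.09. Of these, 4 were above 0 on both arrays (23.5%) and 6 below (35.3%), against 30.1% and 30.3% of all probes. After median centring the median was -0.26, with 2 above 0 on both arrays and 11 below, against 33.6% and 33.4% of all probes. An unadjusted limma p under 0.05 was reached by 1 probe with nitrate higher and by 2 with nitrate lower. Together they are 17.6% of the 17, against 12.4% of all probes tested. The higher probe, MZ00043096, had 28893 and 30828 under nitrate, against 18802 and 26801 in control. Its raw nitrate values exceed both raw control values. After loess its log2 ratios were 1.06 and 0.25, with a mean of 0.66 ± 0.57 (SD, n = 2 arrays) and an adjusted limma p of 0.368. After median centring the ratios were 0.65 and -0.14. The lower probes were MZ00009658, with log2 ratios of -1.07 and -0.46, and MZ00006348, with -0.55 and -0.73.

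Several soluble pyrophosphatase probes share a source or reach the top of the scanner's range. The 8 that match the maize soluble enzyme ranged from -0.64 for MZ00006348 to 0.66 for MZ00043096, so probes with 1 best match span most of the range of the class. MZ00043279 had 26925 and 10906 under nitrate, against 73649 and 10841 in control, where replicate 1 was saturated. Its log2 ratios were -1.04 and -0.05. MZ00024044 was saturated in the control channel on both arrays and in the nitrate channel on replicate 2, and its mean of -0.02 gives no measure of a change. MZ00043095 had a mean of -0.20 ± 0.10, MZ00013509 one of 0.41 ± 0.26 and MZ00015241 one of 0.40 ± 0.27 (SD, n = 2 arrays each).

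**Figure D4:**
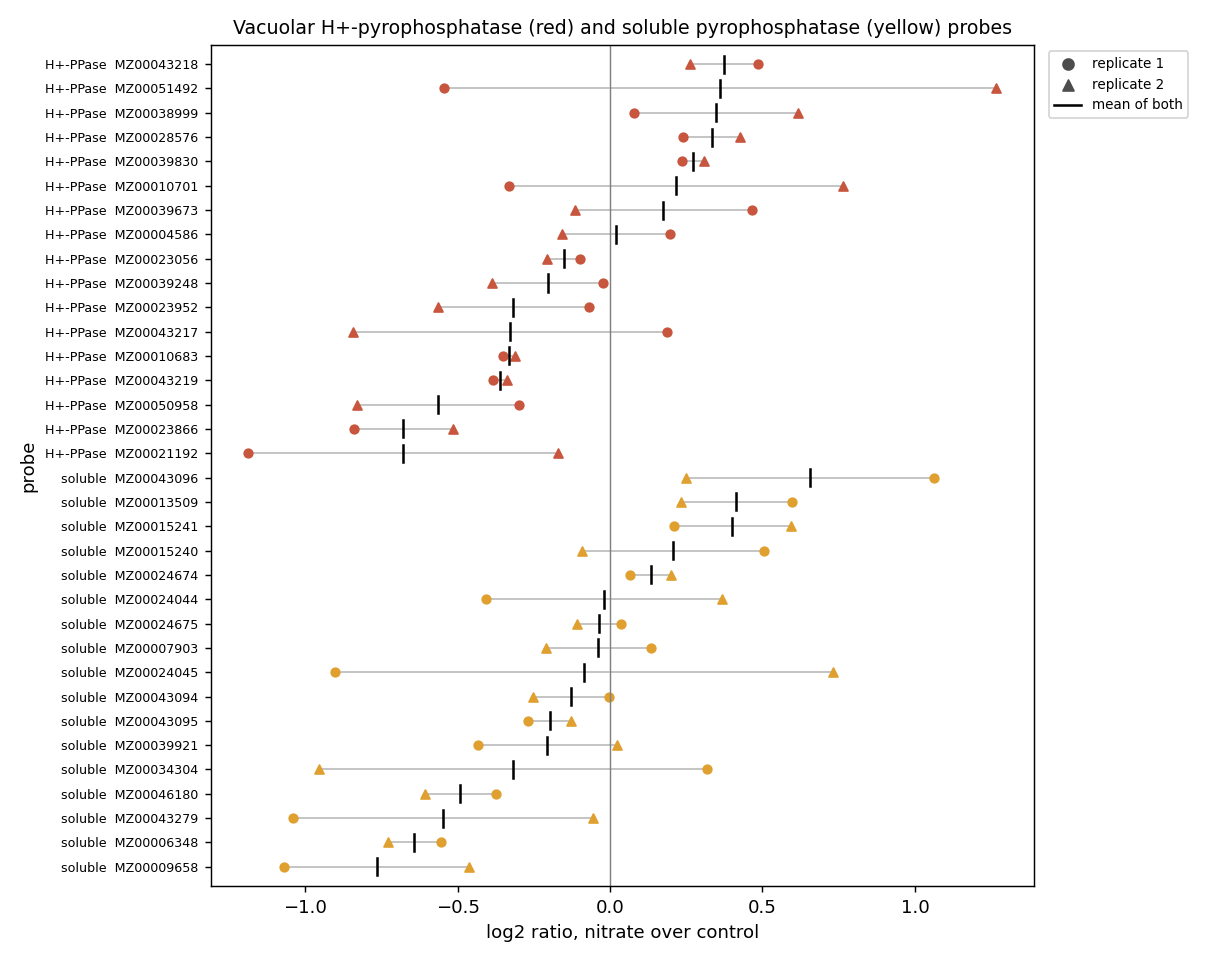
Log2 ratio of nitrate over control for the 17 vacuolar H+-pyrophosphatase and the 17 soluble pyrophosphatase probes (horizontal axis), with replicate 1 as circles, replicate 2 as triangles and the mean as a black bar. Both classes spread over 0, from -0.68 to 0.37 for the vacuolar pump and from -0.77 to 0.66 for the soluble enzymes.

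The plasma membrane H+-ATPase is the pump that powers nitrate uptake at the root surface. Its 7 probes had a median of -0.08, with 0 above 0 on both arrays and 3 below (42.9%), against 30.1% and 30.3% of all probes. After median centring 1 was above 0 on both arrays and 3 below. Of the 6 tested, 0 had an unadjusted limma p under 0.05, against 12.4% of all probes tested. So few probes do not set the class apart from these shares. The probe MZ00039506 had 20343 and 22259 under nitrate, against 20540 and 24675 in control, and its log2 ratios of 0.44 and -0.11 straddle 0. Its mean was 0.16 ± 0.39 (SD, n = 2 arrays) after loess and -0.23 after median centring. MZ00044000 had 5657 and 8529 under nitrate, against 8632 and 7476 in control, also with opposite signs on the arrays.

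The other plasma membrane probes had means from -0.46 to 0.36. MZ00014426 had log2 ratios of -0.04 and -0.26, and MZ00014428 had -0.02 and -0.11. The highest mean, 0.36 ± 0.51, belonged to MZ00023289, with log2 ratios of -0.00 and 0.72. The lowest among the tested probes, -0.46 ± 0.36, belonged to MZ00046221, whose nitrate channel was not above blank on replicate 2. MZ00026406 was not above blank in either channel on either array and was not tested. A further H+-ATPase identifier, MZ00041541, was printed at 2 spots on version B and was left out of all counts, since its spots read 578 and 21541 under nitrate on replicate 1, against 156 and 28149 in control.

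Proton pump interactor proteins bind the regulatory tail of the plasma membrane H+-ATPase in Arabidopsis and stimulate it. The 4 probes share 1 rice best match and yet had means from -0.17 to 1.04. MZ00007574 had 4023 and 10387 under nitrate, against 2542 and 4424 in control. Nitrate was higher on each array, while the ranges of the channels overlap. The log2 ratios were 0.79 and 1.29, with a mean of 1.04 ± 0.35 (SD, n = 2 arrays) and an adjusted limma p of 0.281. MZ00000364 was also positive on both arrays, with 0.22 and 0.88, whereas MZ00026763 and MZ00028164 were negative on replicate 1 and positive on replicate 2.

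The 3 putative proton pump probes share 1 best match, and 2 of them were above 0 on both arrays. MZ00008728 had 3571 and 10559 under nitrate, against 2024 and 4978 in control. Nitrate was higher on each array, while the ranges of the channels overlap. Its log2 ratios were 0.96 and 0.94, with a mean of 0.95 ± 0.02 (SD, n = 2 arrays) and an adjusted limma p of 0.190. MZ00031943 had 0.58 and 0.69, while MZ00014520 had 0.02 and -0.55. Another identifier of this annotation, MZ00041566, was left out because its 2 spots read 32107 and 1418 under nitrate on replicate 1, against 48038 and 353 in control. The ADP-glucose pyrophosphatase probes MZ00044068 and MZ00000780 had means of -0.53 ± 0.31 and -0.01 ± 0.09.

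**Figure D5:**
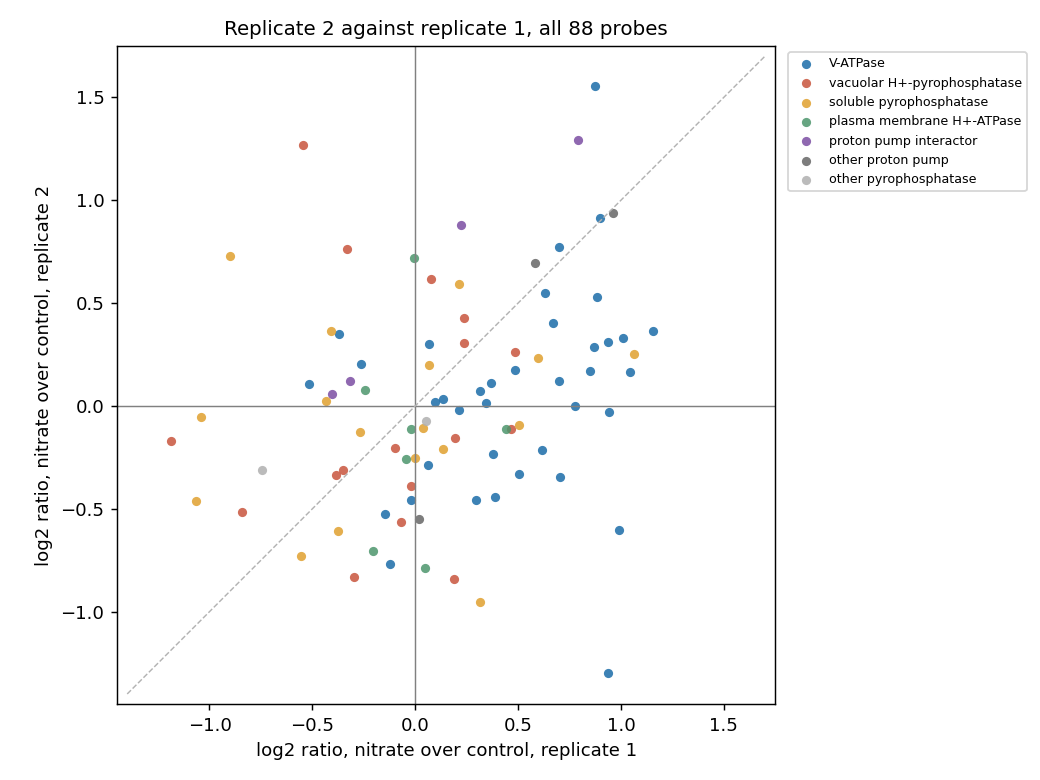
Log2 ratio of nitrate over control on replicate 2 (vertical axis) against replicate 1 (horizontal axis) for the 88 probes, coloured by class, with the dashed line marking equal values. After loess the upper right corner holds 32 probes, the lower left 21, and the other 35 have opposite signs, whereas median centring puts 24 above 0 on both arrays and 30 below.

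The replicate ratios of the 88 probes had a Pearson r of 0.248 and a Spearman rho of 0.304 across probes, against 0.275 and 0.286 over all maize probes. These are correlations across probes of shared arrays, and probes are not independent replicates.

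Other genes of the same pathway also held no probe past an adjusted limma p of 0.05. Over all probes 30.1% were above 0 on both arrays and 30.3% below, and 12.4% of those tested had an unadjusted limma p under 0.05. Proteins of the 14-3-3 family bind the plasma membrane H+-ATPase and keep it active: of 23 probes 10 were above 0 on both arrays and 5 below, with a median of 0.28 after loess and -0.00 after median centring. Protein phosphatases 2C can reverse that activation in Arabidopsis, and of their 76 probes 12 were above 0 on both arrays (15.8%) and 33 below (43.4%). At an unadjusted limma p under 0.05 the phosphatases had 1 probe higher and 7 lower, 11.1% of those tested, and the 14-3-3 probes had 4 and 1 (21.7%). Among proton-coupled antiporters 15 of 56 probes were above 0 on both arrays and 17 below, and 4 higher and 2 lower ones (11.3% of those tested) reached an unadjusted limma p under 0.05. One of these, MZ00030319, annotated as a CAX1-like calcium and proton exchanger, was the single probe of the antiporter list past 2-fold on both arrays. It had 2242 and 4450 under nitrate, against 1089 and 1308 in control, with no overlap, and a mean log2 ratio of 1.31 ± 0.40 (SD, n = 2 arrays) with an adjusted limma p of 0.244.

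The other P-type ATPases, which include calcium pumps and lipid flippases, had 33 of 80 probes above 0 on both arrays (41.2%) and 11 below (13.8%), against 30.1% and 30.3% of all probes, and 7 higher and 2 lower at an unadjusted limma p under 0.05 (11.4%, against 12.4% of all probes tested). Subunits of the ATP synthase, which runs the reverse reaction in mitochondria and chloroplasts, had 17 of 59 above and 7 below after loess, but 14 above and 16 below after median centring, with 8 higher and 0 lower at that p among 57 tested. Nitrate and peptide transporters, many of which carry protons with their substrate, had 15 of 60 above and 23 below, with 2 higher and 4 lower among 57 tested, a smaller share than the 12.4% of all probes. Potassium channels and transporters had 20 of 62 above and 13 below, with 4 higher and 1 lower (8.47%).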

How the data were processed

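Two-colour oligonucleotide arrays compared nitrate-fed with nitrogen-free root RNA. The authors deposited a Cy3 and a Cy5 intensity and a ratio per spot, per the file headers. Values below 0 occur, so a background had been subtracted, and the medians of the ratios near 1 show a centring, but neither method is given in the sources used here. The authors' ratios, of nitrate over control per the labels' titles, served as an alternative. Intensities were corrected here with normexp (offset 50), normalized within arrays by loess with control and badly flagged spots at weight 0, and tested as log2 nitrate over control against 0 in limma 3.58.1 (R 4.3.3), separately per version with 2 arrays each. Tested probes had at least 1 channel above the 95th percentile of blank spots on both arrays. Probes that read at least 98% of a channel's maximum were taken as saturated. Identifiers with several spots, or on both versions, were left out, because those spots did not read alike.

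The members and lists were chosen with earlier results of these data known. Named are members past the adjusted threshold or 2-fold on both arrays, the 3 highest and 3 lowest tested members and the 2 with the strongest signal in each class, and the strongest of each V-ATPase subunit. The number of arrays limits the precision.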

Additional observations from a re-analysis of the deposited data

How the results depend on the processing

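No paired analysis was possible because each ratio already pairs nitrate and control on its own array. Tests and counts over both arrays have no value without a replicate. With 2 arrays per version and dyes never swapped, no member was called under any setting tried, while the number of all probes called depended on the setting. On version A, 0 probes were called higher, against 9 with print-tip loess and 3 with a trended robust prior. On version B, 11 were called higher, against 3 with print-tip loess, 0 without normexp, 3 with an offset of 16, 0 with the deposited ratios, 4 with scaling between arrays, 43 with a trended robust prior and 0 with a maximum likelihood prior, and 2 were called lower with the trended robust prior. Members at an unadjusted limma p under 0.05 on version B numbered 10, against 6 with print-tip loess and 4 with the deposited ratios. V-ATPase members at that p numbered 9, against 5 without normexp and 4 with the deposited ratios.

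Median centring gave medians of -0.16 for the members of version B (0.09 after loess), -0.19 for the plasma membrane H+-ATPase (-0.08), -0.26 for the soluble pyrophosphatases (-0.09), 0.48 for the putative proton pump (0.64) and 0.0805 for the ADP-glucose pyrophosphatase (-0.27). It left 12 members of version B above 0 on both arrays (21 after loess) and 5 V-ATPase members below 0 on both (3 after loess, 0 with print-tip loess and 0 with the deposited ratios). The deposited ratios gave medians of 0.16 for the members of version B, -0.22 for the plasma membrane H+-ATPase and -0.16 for the soluble pyrophosphatases. Print-tip loess gave -0.0690 for the vacuolar H+-pyrophosphatase (-0.15), and leaving out normexp gave -0.39 for the ADP-glucose pyrophosphatase. Leaving out a replicate gave medians of 0.0315 to 0.0957 for the members of version B, 0.0899 to 0.559 for the V-ATPase, -0.172 to -0.0693 for the vacuolar H+-pyrophosphatase and -0.0912 to -0.0031 for the soluble pyrophosphatases. The V-ATPase median was 0.0899 without replicate 1 and 0.559 without replicate 2. Of the 46 named members, 8 turned sign with median centring, 2 with print-tip loess, 2 with the deposited ratios, 7 without replicate 1 and 5 without replicate 2. Brightness limits the 5 members with a saturated channel and the 6 with a channel not above blank. The cause of these changes was not tested.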
